A study of Mus musculus with 16 samples.

Results

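The change in gene expression from the EB5 to the EB8 stage of neuronal differentiation was compared between wild-type mouse ES cells (WT, genotype Taf4+/+) and cells homozygous for a null allele of Taf4a (KO, genotype Taf4-/-). The quantity of interest was, for each gene, the KO change minus the WT change on the scale of log2(normalised count + 1), called the interaction value below. It was computed for all genes from 8 of the 16 libraries of the series, with 2 libraries in each of the groups WT EB5, WT EB8, KO EB5 and KO EB8, and none of the ES cell libraries entered it. All of these cells were embryoid bodies, floating aggregates of differentiating ES cells, and all had received all-trans retinoic acid (RA), for its first day at EB5 and until the end of the treatment at EB8. The ES lines were derived from blastocysts of crosses between Taf4a+/- mice and were grown on fibroblast feeders, and the series names 2 independent lines for each genotype. The null allele was present in every cell and at every stage, so that a difference at EB8 can carry over from earlier stages. Of 27807 genes in the table, 16097 had a mean of at least 10 normalised counts over the 12 embryoid body libraries and were tested.

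TAF4 belongs to the core of TFIID, which brings the TATA-binding protein to promoters, and Taf4b encodes its paralogue. RA binds nuclear receptors and turns on Hox genes and neural progenitor genes, while the pluripotency network and the Nodal signalling that goes with it are switched off. Progenitors then divide under Notch signalling, and those that escape it turn on proneural factors, leave the cell cycle and make the cytoskeleton of neurons.

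Sequencing depth was alike in the 8 libraries, from 22442118 to 27685306 reads in genes. Taf4a itself had normalised counts of 1778.5 and 1755.9 at WT EB5, 1590.9 and 1939.7 at WT EB8, 2284 and 2002.4 at KO EB5 and 2341.2 and 1972.8 at KO EB8. Its reads were not lower in KO, and a count over the whole gene cannot show whether the deleted part was missing, so that the genotypes are those of the labels. Libraries of one genotype with the same replicate number deviated together, so that the number is used here as the number of a line. Some lines differed in the level of whole chromosomes. WT line 1 was high for chromosome 8 (0.36 at EB5 and 0.38 at EB8 on the log2 scale), KO line 1 for chromosome 11 (0.21 and 0.26) and KO line 2 for the X chromosome (0.47 and 0.45). Eif2s3y, on the Y chromosome, was at 840.7 to 1267.5 counts in the WT libraries and 1.9 to 34.8 in the KO libraries, so that genotype and the presence of Y expression cannot be told apart. These levels belonged to a line at both stages, and the medians of the autosomes and of the X chromosome moved by at most 0.134 from EB5 to EB8 within a line. The Y genes and Xist, summed, were at 152.6 and 156.2 counts in KO line 1 at EB5 and EB8. In KO line 2 the sum was 1424 and 3024, with no Y gene above 20.4. The KO lines thus differed in Xist, which was higher at EB8 in KO line 2.

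At a limma adjusted p of 0.05 the EB5 to EB8 change differed between genotypes for 129 genes, which is 0.801% of those tested. In 111 of them (0.69%) the KO change was the lower one, and in 18 (0.112%) it was the higher one. Of the 111 genes 102 rose in WT from EB5 to EB8, while in KO 1 rose, 7 fell and 103 did not pass. Their median change was 2.71 and 2.99 in the WT lines against -0.32 and -0.58 in the KO lines on the log2 scale, and their median interaction value was -3.61, with a range from -8.48 to -1.23. The 18 genes showed the opposite arrangement, with median changes of -2.82 and -2.53 in the WT lines and -0.28 and -0.49 in the KO lines, and a median interaction value of 2.13. The median over all genes tested was -0.01. The threshold chose both sets, so that these medians describe them and are no test.

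The shape of the change differed among the 111 genes. In 47 genes the change was 1 or more on the log2 scale in both WT lines and less than 1 in size in both KO lines. In 14 genes it was 1 or more in both WT lines and -1 or less in both KO lines, and in 7 genes it was 1 or more in all 4 lines, with smaller values in KO. The median KO minus WT difference of these genes was 0.18 at EB5 and -3.46 at EB8. Single genes went both ways at EB5, from -2.56 to 3.34, where KO was above WT in 9 and below it in 10 at a limma adjusted p of 0.05, and at EB8 KO was below WT in 108. For the 18 genes the medians were 0.01 at EB5, with 4 above and 1 below, and 2.62 at EB8, with 17 above. Protein-coding genes made up 106 of the 111 and all 18 of the others. Chromosomes 8, 11, X and Y held 13 of the 111 and 1 of the 18, which leaves 115 genes on the others, 98 lower and 17 higher. The fit and the adjustment were not redone for this, so that it is a count and no test.

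The number of calls depended on how the lines entered the fit. With a term for each line, which compares EB8 with EB5 inside each line, 465 genes (2.89%) passed, 320 lower (1.99%) and 145 higher (0.901%), and all 129 genes above were among them with the same sign. Leaving out any 1 library lowered the count, to 54 without KO EB8 replicate 1 and to 5 without WT EB8 replicate 2, which shows how much each group of 2 libraries rests on both. Without either line of WT the count was 0 or 2. In each of these fits all 129 genes kept the sign of the interaction value. The genes were chosen for their values in the same libraries. In all of them both KO changes lay on one side of both WT changes. Leaving out a line could therefore not turn the sign, and the kept signs are no independent test.

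Taken one genotype at a time, 963 genes rose (5.98%) and 743 fell (4.62%) from EB5 to EB8 in WT, and 64 rose (0.398%) and 43 fell (0.267%) in KO. Of the 963 genes, 38 also rose in KO, 923 did not pass there and 2 fell. Of the 743 genes that fell in WT, 25 also fell in KO, 717 did not pass and 1 rose. In the other direction 25 genes rose and 16 fell in KO without passing in WT. Passing in one genotype and not in the other is no test of a difference, and most of these genes had no interaction value past the threshold. The plot of the KO change against the WT change shows this, with a wide cloud along the WT axis and a narrower one along the KO axis.

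**Figure D1:**
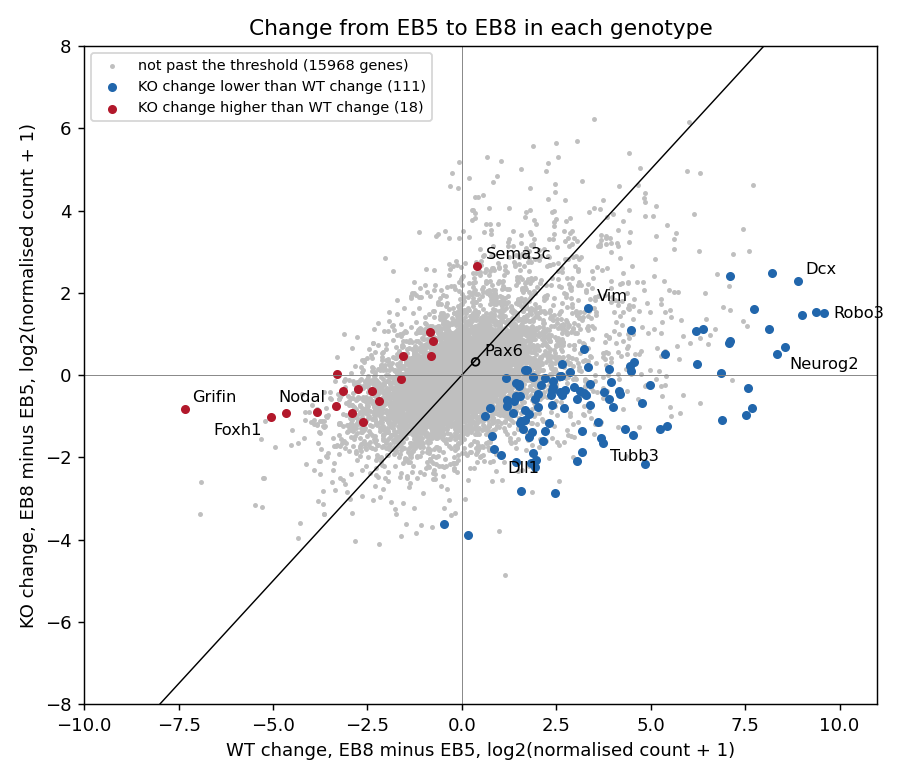
Change from EB5 to EB8 in WT (x axis) and KO (y axis), both in log2(normalised count + 1), one point per gene tested, with the line of equal change. The 111 genes with a lower KO change lie mostly to the right at WT changes above 0, the 18 with a higher KO change mostly to the left, and Pax6 lies close to the line.

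The size of the change was also read without a test, by choosing genes in 1 line and reading them in the 3 others. With a choice of genes 2 or more higher at EB8 (log2 scale) in WT line 1, the 760 genes had a median change of 2.62 in WT line 2, and of 0.78 and 0.99 in the KO lines. The 735 genes chosen in the same way in WT line 2 had medians of 2.67 in WT line 1 and 0.75 and 0.69 in the KO lines. For genes 2 or more lower at EB8, the choice in WT line 1 (625 genes) gave -1.66 in WT line 2 and -0.67 and -0.95 in KO, and the choice in WT line 2 (494 genes) gave -2.06 in WT line 1 and -0.74 and -0.64 in KO. The choice in KO gave fewer genes and another picture. The 351 genes with the higher level in KO line 1 had a median of 2.32 in KO line 2 and of 1.86 and 1.66 in WT, and the 482 chosen in KO line 2 had 1.71 in KO line 1 and 1.76 and 1.39 in WT. Genes chosen for a higher level at EB8 in KO thus had WT medians above 1, whereas those chosen in WT had KO medians under 1. For genes lower at EB8, the 260 chosen in KO line 1 had medians of -1.0 in KO line 2 and -1.15 in both WT lines, and the 281 chosen in KO line 2 had -0.8 in KO line 1 and -1.08 and -0.43 in WT, so that the other KO line lay no further from 0 than WT line 1. These medians are descriptions of genes chosen for their change and have no test.

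**Figure D2:**
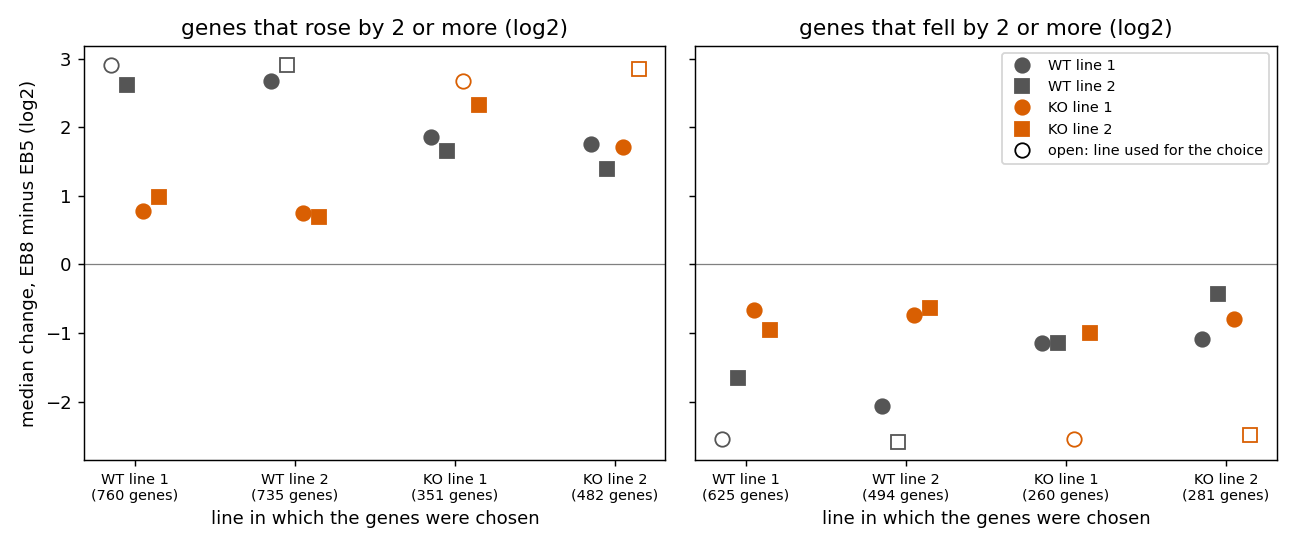
Median log2 change from EB5 to EB8 in each of the 4 lines (y axis) for genes with an EB8 level at least 2 (log2) above (left) or below (right) EB5 in the line named on the x axis. Open symbols are the line used for the choice, filled symbols the other lines, and in the WT choices both KO lines lie nearer to 0 than the other WT line.

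Promoters are shown for 2 groups of genes, because TFIID acts there. The first holds the genes with the largest positive (Grifin, Nodal) and the largest negative (Robo3, Neurog2) interaction values among the named genes that have a promoter in the reference table. The second holds the genes with a lower KO change in which the letters TATAAA, a form of the TATA box, begin 40 to 20 bases before the start on either strand. Sequences are the 150 bases before the start on build GRCm38.p6 as given by RefSeq, 5′ to 3′ in the direction of the gene, and capitals mark the motifs searched for.
Grifin, chr5:140565068-140565217, minus strand: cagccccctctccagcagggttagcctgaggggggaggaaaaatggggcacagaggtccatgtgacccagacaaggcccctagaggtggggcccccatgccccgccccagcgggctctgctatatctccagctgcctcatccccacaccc
Nodal, chr10:61417822-61417971, plus strand: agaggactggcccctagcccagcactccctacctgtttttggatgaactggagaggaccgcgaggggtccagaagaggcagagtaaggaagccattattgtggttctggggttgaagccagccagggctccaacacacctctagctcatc
Robo3, chr9:37433176-37433325, minus strand: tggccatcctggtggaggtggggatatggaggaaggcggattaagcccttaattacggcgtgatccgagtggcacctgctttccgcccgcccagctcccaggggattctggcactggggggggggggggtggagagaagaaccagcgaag
Neurog2, chr3:127632986-127633135, plus strand: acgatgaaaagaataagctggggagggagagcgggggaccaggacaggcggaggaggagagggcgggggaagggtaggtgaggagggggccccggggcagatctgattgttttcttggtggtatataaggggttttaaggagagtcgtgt
Vim, chr2:13574161-13574310, plus strand: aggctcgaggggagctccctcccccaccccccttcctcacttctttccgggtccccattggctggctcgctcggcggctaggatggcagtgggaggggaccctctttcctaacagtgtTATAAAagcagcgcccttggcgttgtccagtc
Msx3, chr7:140049089-140049238, minus strand: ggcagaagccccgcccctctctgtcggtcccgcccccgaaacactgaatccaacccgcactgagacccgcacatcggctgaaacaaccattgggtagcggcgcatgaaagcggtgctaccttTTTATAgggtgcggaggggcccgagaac
Elavl3, chr9:22052024-22052173, minus strand: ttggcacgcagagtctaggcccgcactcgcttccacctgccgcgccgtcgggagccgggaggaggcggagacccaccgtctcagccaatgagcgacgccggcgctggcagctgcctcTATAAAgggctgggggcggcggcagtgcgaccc
Ckb, chr12:111672339-111672488, minus strand: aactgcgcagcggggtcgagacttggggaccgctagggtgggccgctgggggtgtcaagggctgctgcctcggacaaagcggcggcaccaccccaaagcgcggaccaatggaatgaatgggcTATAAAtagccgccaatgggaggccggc
Gadd45g, chr13:51846525-51846674, plus strand: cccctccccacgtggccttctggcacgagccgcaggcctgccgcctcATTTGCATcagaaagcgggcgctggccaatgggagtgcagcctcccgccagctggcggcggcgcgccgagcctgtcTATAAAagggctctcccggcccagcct

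The motifs searched for on both strands were TATAAA (a form of the TATA box), AGGTCA (the core hexamer of RA receptor sites) and ATGCAAAT (the octamer of POU factors), over windows of 250 bases before to 50 bases after the start. Of the 111 genes with a lower KO change 69 had a promoter in the table, of the 18 with a higher change 15, and of the 16056 gene symbols tested 10755. TATAAA was found in 14 of the 69 (20.3%) and in 9.17% of all promoters, and at 40 to 20 bases before the start in 5 of the 69 (7.25%), against 1.97% of all. AGGTCA was found in 9 of the 69 (13%) and in 4 of the 15 (26.7%), against 14.9% of all, and ATGCAAAT in 4 of the 69 (5.8%) and 1 of the 15 (6.67%), against 1.72% of all. The 4 promoters of the first group hold none of these letters in the window. Only exact matches were counted, so that the TATATAA in the printed Neurog2 promoter was not, and the shares do not cover all TATA boxes. Of the second group, Msx3 carries its TATAAA on the opposite strand, and Gadd45g also holds the octamer, again on the opposite strand. These shares describe letters in a window and were not tested. The 5 genes are of different kinds. Vim encodes the intermediate filament of neuroepithelial cells, Elavl3 a neuronal RNA-binding protein, Msx3 a homeobox factor of the dorsal neural tube, Ckb the brain creatine kinase and Gadd45g a stress and differentiation protein.

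Proneural factors, the basic helix-loop-helix proteins that commit progenitors to the neuronal fate, had the most negative median of all lists. Of 15 listed genes 11 were tested, and their median interaction value was -4.91, with a median WT change of 6.52 and a KO change of 0.52. Both KO lines had a smaller change than both WT lines in all 11, an arrangement that 23.7% of all genes tested had. Neurog2 and Neurod1 passed the threshold (2 of 11), and 5 passed within line. Of all genes tested, 0.69% passed with a lower KO change and 1.99% did so within line. For a higher KO change the shares were 0.112% and 0.901%. These shares stand beside the calls in the lists below as well. Genes low everywhere but in WT EB8 pass the filter on counts through that group, here and in the lists below, so that such counts and medians describe the tested members only. Neurog2 (ENSMUSG00000027967, build NCBI37, chromosome 3, 127336054 to 127338549) had 0 and 2.2 normalised counts at WT EB5, 830.6 and 552.7 at WT EB8, 6.6 and 0 at KO EB5 and 5.3 and 2.1 at KO EB8. It was at or under 6.6 counts in all libraries but those of WT EB8, where it was at least 226-fold over WT EB5 against a floor of 3 reads (interaction value -7.89, standard error 1.49, limma adjusted p 0.0453). Neurod1, which acts after the neurogenins, had 86.6 and 48.3 counts at WT EB5, 1012.3 and 949.7 at WT EB8, 36 and 36.8 at KO EB5 and 31.7 and 18.1 at KO EB8. The KO libraries lay below every WT library of the same stage, and WT rose 14.6-fold (interaction value -4.48, limma adjusted p 0.0169). Neurog1 had 27.3 and 17.6 counts at WT EB5 and 1896.5 and 2343.1 at WT EB8, against 91 and 31 and then 177.3 and 45.8 in KO. Its interaction value of -5.77 had a limma adjusted p of 0.0507, and of 0.00313 within line, over a range of 1.01e-06 to 0.397 across all alternatives.

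Among the named genes with the most negative interaction values several are known from neurons. Robo3 (ENSMUSG00000032128, chromosome 9, 37223254 to 37240760), the receptor that lets commissural axons cross the midline, had 5.6 and 2.2 counts at WT EB5, 3946.3 and 3243 at WT EB8, 15.2 and 14.5 at KO EB5 and 63.3 and 30.9 at KO EB8. WT rose 917-fold, and the KO libraries at EB8 lay far below those of WT (interaction value -8.09, standard error 0.73, limma adjusted p 0.00283). Myt1 and St18, zinc finger factors of the same family that favour the neuronal fate, had interaction values of -7.84 and -7.56 (limma adjusted p 0.0219 and 0.025). Myt1 had 1.9 and 1.1 counts at WT EB5, 1413.5 and 1882.5 at WT EB8, 1.9 and 6.8 at KO EB5 and 19 and 8.5 at KO EB8. Scrt2, a Snail-type repressor of neurons, reached 992.4 and 1516.2 counts at WT EB8 and 54.9 and 3.2 at KO EB8 (interaction value -7.89, limma adjusted p 0.0366). Slc6a5, the glycine transporter of inhibitory neurons, reached 277.2 and 555.9 at WT EB8 and 5.3 and 7.5 at KO EB8 (-7.03, limma adjusted p 0.0304). Otp, a homeobox factor, reached 180.6 and 279.5 at WT EB8 and was at 1.1 and 0 at KO EB8 (-6.81, limma adjusted p 0.0433). Its value was -6.06 with a floor of 3 reads, and neither DESeq2 (adjusted p 0.101) nor edgeR (0.457) called it. St18, Scrt2 and Slc6a5 did not pass with edgeR either (adjusted p 0.128, 0.0517 and 0.0517). Ppp1r17, a phosphatase inhibitor of neurons, had 0 counts in all 4 EB5 libraries, 360.2 and 288 at WT EB8 and 1.1 and 0 at KO EB8 (-7.82, limma adjusted p 0.0213). Its adjusted p ranged from 0.00188 to 1 over the alternatives. These 7 genes had from 0 to 21.3 counts in every EB5 library, so that nearly all of the difference between genotypes lay at EB8.

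Genes of neurons were the list with the most calls. Of 20 listed genes 19 were tested, 8 passed with a lower KO change and 14 within line, and in all 19 both KO changes lay below both WT changes, against 23.7% of all genes. The median interaction value was -3.15, with a median WT change of 2.96 and a KO change of -0.71. Tubb3 (ENSMUSG00000062380), the tubulin of neurons, had 385.8 and 419.5 counts at WT EB5 and 5245.3 and 5469.6 at WT EB8, against 1168.1 and 1270.3 at KO EB5 and 555 and 271.6 at KO EB8. At EB5 the KO libraries were the higher ones and at EB8 the lower ones, with no overlap at either stage. Tubb3 rose 13.3-fold in WT and fell 2.95-fold in KO, with an interaction value of -5.38 (standard error 0.42, limma adjusted p 0.000996). It lies on chromosome 8, but the WT line with the high level of that chromosome and the other WT line changed by 3.76 and 3.70. Dcx, doublecortin, which binds microtubules in migrating neurons, had 10.4 and 12.1 counts at WT EB5, 4946 and 6972 at WT EB8, 25.6 and 7.8 at KO EB5 and 61.2 and 88.4 at KO EB8. Both KO lines lay above their EB5 values, by 1.23 and 3.35 on the log2 scale, and the WT lines by 8.77 and 9.06 (interaction value -6.62, limma adjusted p 0.0364).

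The other genes of neurons differed in their KO values. Ina, a neurofilament-type protein, went from 1105.7 and 856.5 to 4131.2 and 4446.9 counts in WT and from 751.8 and 469.3 to 318.6 and 119.3 in KO (interaction value -3.74, limma adjusted p 0.0251). Elavl3 went from 428.2 and 210.8 to 2164.3 and 3514.1 in WT and from 488.3 and 740.8 to 319.7 and 84.2 in KO (-5.06, limma adjusted p 0.0251). In both genes the KO lines were lower at EB8 than at EB5. The KO EB8 libraries of Ina lay below all others, while 1 of Elavl3 overlapped the WT EB5 range. Elavl4, its close relative, had 26.5 and 35.9 counts at KO EB5 and 44.3 and 26.6 at KO EB8, against 125.2 and 132.9 and then 1796.7 and 2062.5 in WT (-3.74, limma adjusted p 0.0213). Snap25, of synaptic vesicle fusion, and Map2, of dendrites, had interaction values of -4.65 and -3.15 (limma adjusted p 0.0299 for each), and Celf4, an RNA-binding protein, -2.72 (0.0326). Ncam1, Nefm and Stmn2 had values of -1.34, -2.18 and -1.25 and did not pass (limma adjusted p 0.518, 0.295 and 0.716). Slc17a6, the glutamate transporter of the neurons this protocol yields, had at most 4.2 counts in any of the 8 libraries and was not tested. In bulk libraries such as these, fewer neurons and less RNA per neuron cannot be told apart.

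**Figure D3:**
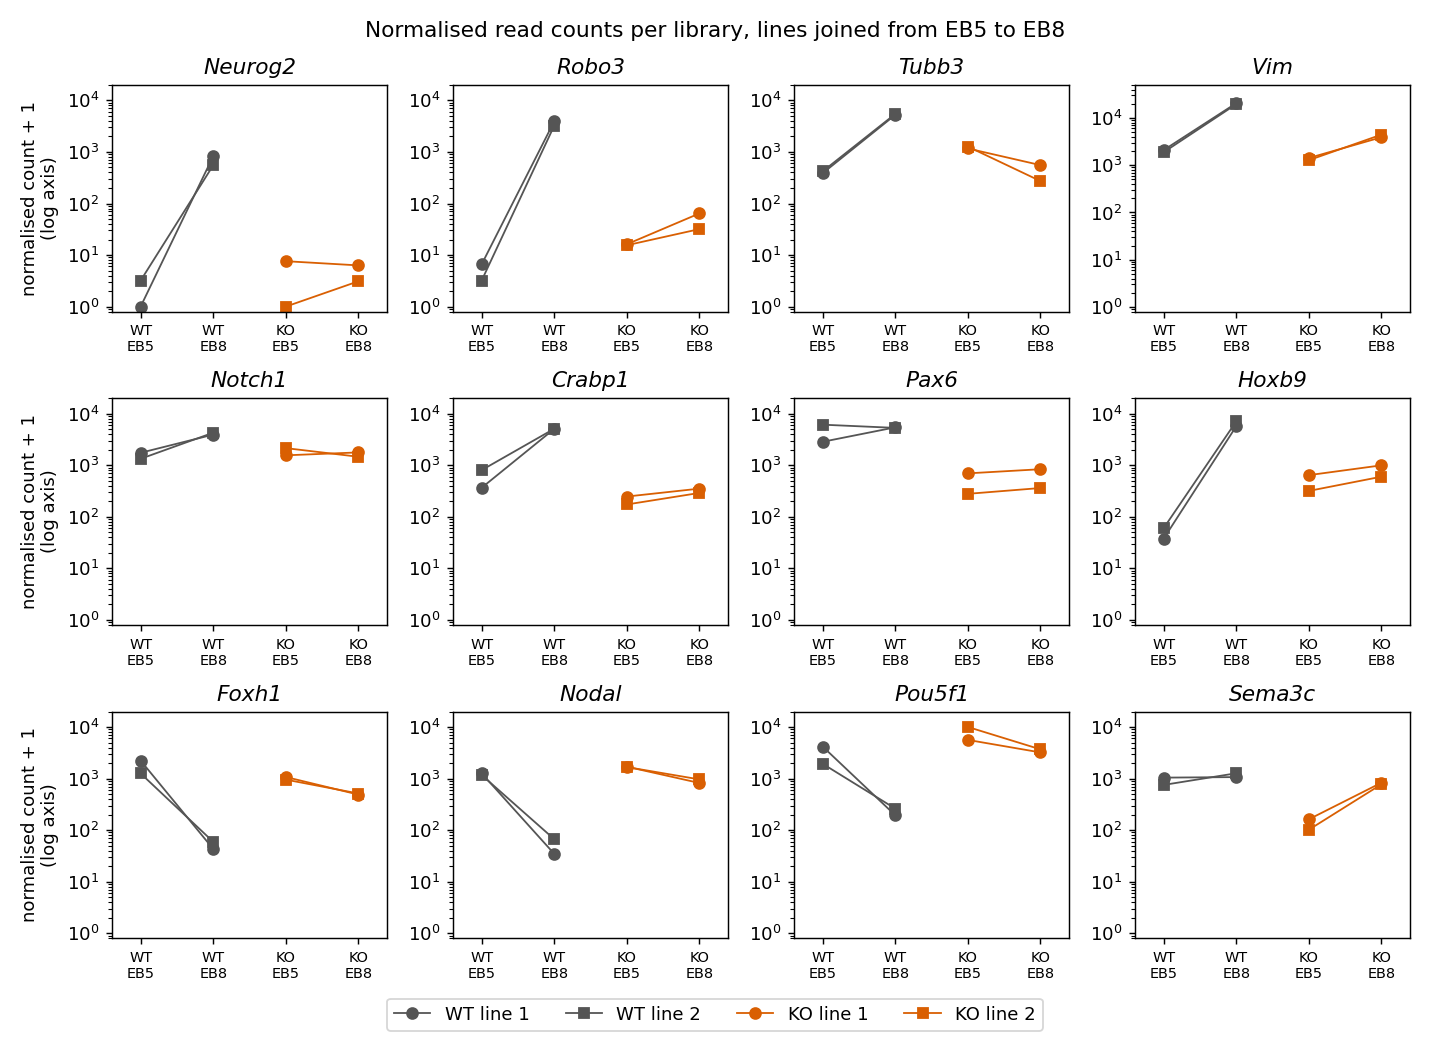
Normalised counts + 1 (log axis) of 12 genes in each library, with EB5 and EB8 of the same line joined, WT in grey and KO in orange, circles for line 1 and squares for line 2. Neurog2 and Robo3 are low in all libraries but those of WT EB8, and Hoxb9 is higher in KO at EB5 and higher in WT at EB8. Tubb3 rises in WT and falls in KO, and Foxh1, Nodal and Pou5f1 end lower in WT than in KO. Pax6 is lower in KO at both stages, and its WT lines move in opposite directions.

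The list of postmitotic neuron factors, homeobox genes apart from Ebf2, had a median interaction value of -3.06. Of 18 listed 14 were tested, of which 1 passed, Ebf2, and 3 passed within line, so that no homeobox member passed in limma without the line term. In 10 of the 14 both KO changes lay below both WT changes and in 2 above. Of all genes tested, 23.7% and 21.9% had these arrangements. Ebf2, a helix-loop-helix factor of newly formed neurons, had 17.9 and 9.9 counts at WT EB5, 438.9 and 473.3 at WT EB8, 12.3 and 17.5 at KO EB5 and 12.7 and 11.7 at KO EB8. Its KO values lay between 11.7 and 17.5 at both stages (interaction value -5.25, limma adjusted p 0.0251). Lhx1, a factor of spinal interneurons, had 2161.7 and 366.5 counts at KO EB5, a spread between lines wider than the difference between genotypes there, and its value of -3.55 had a limma adjusted p of 0.297.

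The Notch pathway held members with a lower KO change and members with values near 0. Of 18 genes of the pathway 2 passed, Notch1 and Dll1, and 6 passed within line, all 6 lower, with a median interaction value of -1.25. Dll1 (ENSMUSG00000014773, chromosome 17, 15504318 to 15513836), the ligand of newborn neurons, had 782 and 706.1 counts at WT EB5, 1762.1 and 1301.2 at WT EB8, 458.9 and 606.1 at KO EB5 and 144.5 and 130 at KO EB8. Both KO lines were lower at EB8 than at EB5 and both WT lines higher (interaction value -2.96, standard error 0.56, limma adjusted p 0.0453). Notch1, the receptor, had 1746.5 and 1335.3 counts at WT EB5 and 3936.9 and 4290.2 at WT EB8, against 1559.6 and 2150.8 and then 1776.7 and 1462.6 in KO. WT rose 2.67-fold, and the KO values overlapped between stages (-1.61, limma adjusted p 0.0372). Dll3 and Mfng, a ligand and a glycosyltransferase that modifies Notch, passed within line only (interaction values -3.65 and -2.30, limma adjusted p 0.163 and 0.101 without the line term). The Notch targets were not alike. Hes5 went from 35.8 and 32.9 to 810.7 and 1101.1 counts in WT and from 14.2 and 1.9 to 14.8 and 5.3 in KO (-4.16, limma adjusted p 0.147, past the threshold within line), while Hes1 had an interaction value of -0.42 (limma adjusted p 0.832). Jag2, Notch3 and Hey2 had values between -0.32 and -0.16.

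Dtx4, a Deltex protein of the Notch pathway that was in no list and is named here after its values were seen, had the same adjusted p as Tubb3. It had 1673.1 and 1993.1 counts at WT EB5, 12671.8 and 11699.5 at WT EB8, 475 and 422.8 at KO EB5 and 366.1 and 330.2 at KO EB8. The lines of a genotype were close to each other at both stages, with an interaction value of -3.10 (standard error 0.23, limma adjusted p 0.000996). Nrarp, a feedback inhibitor of Notch, and Dner, a Delta-like protein of neurons, also passed (-3.50 and -4.74, limma adjusted p 0.0299 and 0.0304).

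Neural progenitor genes held both members with a lower KO change and members with values near 0. Of 15 tested, 3 passed (Pou3f3, Notch1 and Neurog2) and 8 passed within line, all lower, with a median interaction value of -1.44. The lists overlap, and Notch1 and Neurog2 are the same calls as in the Notch and proneural lists. Pou3f3, a POU factor of neural progenitors, had 12.2 and 19.8 counts at WT EB5, 2289.3 and 2234 at WT EB8, 10.4 and 10.7 at KO EB5 and 84.4 and 42.6 at KO EB8. The genotypes were close at EB5, and WT rose 141-fold (interaction value -4.69, limma adjusted p 0.0219). The KO lines were higher at EB8, which passed within line (limma adjusted p 0.0216) and not without the line term (0.0632). Pax6, which marks cortical and spinal progenitors, behaved otherwise. It had 2855 and 6135.3 counts at WT EB5, 5447 and 5317.2 at WT EB8, 695.9 and 278.3 at KO EB5 and 837.7 and 361.1 at KO EB8. KO was below WT in all libraries of both stages, with an interaction value of -0.04 (standard error 0.74, limma adjusted p 0.996). The WT lines changed in opposite directions, so that this value averages over unlike lines. Nes, Sox21 and Zbtb16 also had values near 0 (-0.36, -0.37 and 0.24), whereas Slc1a3 and Fabp7, of radial glia, had -1.44 and -5.12 and passed within line only (limma adjusted p 0.116 and 0.0851 without the line term). Sox3, a SoxB1 factor on the X chromosome that was listed with the epiblast, had 1058.6 and 848.9 counts at WT EB5, 3285.8 and 3244.1 at WT EB8, 454.1 and 325.8 at KO EB5 and 155.1 and 118.2 at KO EB8. WT rose and both KO lines were lower at EB8 (-3.28, limma adjusted p 0.0251).

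Factors that pattern the neural tube from dorsal to ventral had a median interaction value of -3.16 over 16 tested of 18, of which 1 passed and 3 passed within line. Msx3, dorsal, had 55.5 and 93.3 counts at WT EB5, 1728.5 and 1648.5 at WT EB8, 19.9 and 10.7 at KO EB5 and 9.5 and 2.1 at KO EB8, and the groups did not overlap at either stage (interaction value -5.98, limma adjusted p 0.0372). Shh, the ventral signal, had 0.9 and 5.5 counts at WT EB5, 104 and 175.8 at WT EB8 and 4.2 to 5.8 in the 4 KO libraries. Its value of -5.52 had a limma adjusted p of 0.0506, and of 0.0195 within line, over a range of 0.00601 to 0.303. Hhip and Ptch1, which bind Hedgehog ligands and are also its targets, passed with values of -3.46 and -1.60 (limma adjusted p 0.049 and 0.0251) and were found by their values. Ptch1 fell in KO, from 6925.9 and 7065.1 to 3741.3 and 3296.9 counts, and went from 5080.4 and 3754.5 to 6708.1 and 6629 in WT. Foxn4, of retinal and spinal interneuron progenitors, passed through a fall in KO alone, from 821.1 and 1198.5 to 78.1 and 82 counts, while WT had 231.5 and 177.9 and then 113.4 and 189.5 (-3.15, limma adjusted p 0.0364). At EB5 Foxn4 was higher in KO and at EB8 the values of both genotypes lay within 78.1 to 189.5.

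Genes that carry, make or answer to RA gave 2 calls among 18 tested, both lower and both also within line. Of all genes tested, 0.69% passed with a lower KO change and 1.99% did so within line. The median interaction value of the 18 genes was -0.34. Crabp1, which passed and encodes a protein that binds RA in the cell, went from 365.1 and 803.8 to 5085.7 and 5116 counts in WT and from 246.5 and 172.6 to 351.3 and 289.7 in KO (-2.61, limma adjusted p 0.0427). Cyp26b1, an enzyme that breaks down RA and is induced by it, went from 480.8 and 1215.6 to 18735.1 and 38733.2 counts in WT and from 383 and 438.3 to 4198.1 and 4334.5 in KO. WT rose 33.9-fold, the KO mean was 10.4-fold higher at EB8 without passing (limma adjusted p 0.0687), and the interaction value of -1.76 did not pass (limma adjusted p 0.622). Rarb, an RA receptor that is itself an RA target, had a value of -0.57, Cyp26a1 0.32 and Dhrs3 -0.01 (limma adjusted p 0.893, 0.972 and 0.999). Aldh1a1, which makes RA, rose in WT from 13.2 and 20.9 to 412.7 and 487 and in KO from 0 and 0 to 13.7 and 39.4 counts, with an interaction value of -0.07 on a scale that depends on the value added to the 0 counts.

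Hox genes, which RA activates in the order of their place in the clusters, gave calls for Hoxb8 and Hoxb9 only. A trend with that order was not tested. Of 15 genes of paralogue groups 1 to 5, 0 passed with limma, 0 within line and 2 at an unadjusted p under 0.05, which 10.2% of all genes tested had, with a median interaction value of -0.89. Of 24 genes of groups 6 to 13, a list added after the calls were seen, 17 were tested, 2 passed (Hoxb8 and Hoxb9) and 4 passed within line, all lower. Hoxb9 (ENSMUSG00000020875, chromosome 11, 96132771 to 96137909) had 36.7 and 59.3 counts at WT EB5, 5724.2 and 7120.3 at WT EB8, 642.8 and 317.1 at KO EB5 and 997 and 599.7 at KO EB8. KO was above WT at EB5 and below it at EB8, with no overlap at either stage, and WT rose 134-fold (interaction value -6.29, standard error 0.93, limma adjusted p 0.0219). Hoxb8 had the same order, with 79 and 39.5 and then 3580.9 and 4993.2 counts in WT and 417.2 and 127 and then 429.4 and 177.9 in KO (-5.95, limma adjusted p 0.0339). Both lie on chromosome 11, and the KO line without the high level of that chromosome changed by 0.92 and 0.48, the other by 0.63 and 0.04. Hoxc8, Hoxc9 and Hoxc10 had positive interaction values of 0.79, 0.99 and 2.91 and did not pass (limma adjusted p 0.897, 0.898 and 0.459). Hoxc8 ended at 482.2 and 680.7 counts in KO and at 47.3 and 43.4 in WT.

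Nodal signalling held 2 of the 18 genes with a higher KO change. Of 8 genes found, 2 passed, Foxh1 and Nodal, and 3 within line, with a median interaction value of 3.11, a WT change of -3.96 and a KO change of -0.75. Foxh1 (ENSMUSG00000033837, chromosome 15, 76498714 to 76500378), the DNA-binding partner of Smad proteins in this pathway, had 2231.1 and 1257.4 counts at WT EB5, 42 and 58.2 at WT EB8, 1071.4 and 953.2 at KO EB5 and 487.4 and 512.4 at KO EB8. The WT libraries were the higher ones at EB5 and the lower ones at EB8, and WT fell 34.8-fold (interaction value 4.04, standard error 0.43, limma adjusted p 0.00948). Nodal (ENSMUSG00000037171, chromosome 10, 60880720 to 60888086), the ligand, had 1263.8 and 1171.7 counts at WT EB5, 33.6 and 65.6 at WT EB8, 1698 and 1671.7 at KO EB5 and 819.8 and 963 at KO EB8. WT fell 24.5-fold, and the KO values at EB8 were 1.89-fold under those at EB5 (3.74, standard error 0.44, limma adjusted p 0.0137). Lefty1 and Lefty2, inhibitors that Nodal induces, had interaction values of 3.54 and 4.31 (limma adjusted p 0.131 and 0.0732), and Lefty2 passed within line (0.039, range over the alternatives 6.08e-05 to 0.356). Lefty1 fell in both genotypes, from 3584.2 and 1629.6 to 11.6 and 30.7 counts in WT and from 7962.1 and 5426.3 to 549.7 and 726.5 in KO. The receptor Acvr2b and the inhibitor Smad7 had values of -0.56 and 0.20 and did not pass.

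Pluripotency factors had a positive median interaction value, and none passed in limma without the line term. Of 23 genes 0 passed with limma, 11 had an unadjusted p under 0.05 (10.2% of all genes tested did), and 8 passed within line, all higher. DESeq2 called 5 and edgeR 0. The median was 1.63, with a WT change of -2.36 and a KO change of -0.89, and in 16 genes both KO lines lay above both WT lines, an arrangement that 21.9% of all genes had. Pou5f1 (Oct4), a core factor, had 4185.5 and 1936 counts at WT EB5, 193.2 and 260.5 at WT EB8, 5627.9 and 10036.2 at KO EB5 and 3217.9 and 3690 at KO EB8. The lines of a genotype differed most at EB5, and all KO values lay above all WT values of the same stage (interaction value 2.54, limma adjusted p 0.0975, and 0.0209 within line, range over the alternatives 0.00161 to 0.506). Nanog went from 1466.1 and 2147.9 to 117.6 and 313.4 counts in WT and from 9427.9 and 13846.1 to 7989 and 8407.9 in KO (2.72, limma adjusted p 0.0975, 0.0366 within line, range 0.00298 to 0.456). Lin28a, an RNA-binding protein that blocks let-7, was higher in WT at EB5 and higher in KO at EB8, with 22486.9 and 22992.6 and then 3296.3 and 2007.4 counts in WT and 14450 and 7070 and then 5023.2 and 5422.1 in KO (2.19, limma adjusted p 0.0553, 0.0139 within line, range 0.000782 to 0.389). Dppa2, an early embryo gene, had the smallest p of the list within line, with 342.5 and 153.7 and then 78.8 and 37.1 counts in WT and 1672.4 and 2354.4 and then 1688.1 and 3055.1 in KO. Sox2, which progenitors also use, had a value of -0.55 (limma adjusted p 0.656), and Klf4 of -0.99 (0.826).

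Genes outside the lists also had a higher KO change and were named by their values. L1td1, an RNA-binding protein of pluripotent cells, had 2629.1 and 1825.1 counts at WT EB5, 236.3 and 201.2 at WT EB8, 5205.1 and 6284.5 at KO EB5 and 3095.6 and 3750.7 at KO EB8. WT fell 10.2-fold, and all KO libraries were above all WT libraries (interaction value 2.58, standard error 0.32, limma adjusted p 0.0137). Alpl, the alkaline phosphatase used to stain ES cells, had 6347.9 and 4204.7 and then 704.6 and 824.8 counts in WT and 12684.6 and 13147 and then 12313.7 and 8606.1 in KO (2.43, limma adjusted p 0.0251). Nr5a2, an orphan nuclear receptor, and Tcfl5, a basic helix-loop-helix factor, had values of 2.00 and 1.98 (limma adjusted p 0.0476 and 0.0251). Grifin, a galectin-related protein known from the lens, had the largest positive value. It went from 268.2 and 401.9 to 0 and 3.2 counts in WT, at least 106-fold lower against a floor of 3 reads, and from 204.8 and 97 to 85.5 and 72.4 in KO (6.50 as fitted and 5.86 with the WT EB8 libraries set at that floor, limma adjusted p 0.0466). Kcnj12, a potassium channel, Mobp, a myelin protein, and Pm20d1, a secreted peptidase, had values of 3.33, 2.96 and 2.77 (limma adjusted p 0.0372, 0.0364 and 0.0299).

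In other genes the KO change itself passed. Sema3c, a secreted axon guidance protein, had 1042.6 and 752.2 counts at WT EB5, 1068 and 1267.4 at WT EB8, 161.2 and 100.8 at KO EB5 and 831.4 and 775.5 at KO EB8. It rose 6.13-fold in KO from a level far below WT, while WT did not pass (interaction value 2.25, standard error 0.40, limma adjusted p 0.0372). Man2a1, a Golgi mannosidase, rose in KO from 2487.8 and 2207 to 4353.2 and 3995.7 counts and fell in WT from 2595.3 and 2184.2 to 1547.9 and 1289.6, from a common level at EB5 (1.58, limma adjusted p 0.0169). Galnt9, a glycosyltransferase, fell in KO from 37.9 and 34.9 to 1.1 and 2.1 counts and had 51.8 and 75.8 and then 71.4 and 68.8 in WT (-4.04, limma adjusted p 0.0251).

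Cell cycle genes had a median interaction value of -0.08. Of 19 tested 1 passed, Ccnd1, 2 passed within line and 4 had an unadjusted p under 0.05, all 4 with a lower KO change. The shares of all genes tested were 0.801%, 2.89% and 10.2%, in either direction. Ccnd1, cyclin D1, had 1355 and 1035.5 counts at WT EB5, 7111.4 and 5281.2 at WT EB8, 1412.7 and 1047.3 at KO EB5 and 561.3 and 1346.5 at KO EB8. The genotypes overlapped at EB5, and WT rose 5.18-fold (interaction value -2.85, limma adjusted p 0.0424). Ccnd2 had 4683.3 and 10086.3 and then 40499.8 and 31206.3 counts in WT and 8444.7 and 3005 and then 1863.2 and 2700.4 in KO (-3.54, limma adjusted p 0.0881, 0.0335 within line, range 0.000196 to 0.505). The proliferation genes Top2a and Mki67 had values of -0.64 and -0.44 (limma adjusted p 0.231 and 0.413). Top2a had 30042.4 and 26409.3 counts at KO EB5 and 19196.9 and 16477.1 at KO EB8, against 25071.5 to 30001.4 in the WT libraries. Mki67 had 13212.7 and 13535.8 at KO EB5 and 9174.8 and 9741.6 at KO EB8, against 17618.8 to 18898.9 in WT. The KO changes of Top2a and Mki67 passed within line (limma adjusted p 0.0283 and 0.0433) and not without the line term (0.0717 and 0.111). The 6 Mcm genes of the replication helicase, Mcm2 to Mcm7, had values from -0.08 to 0.23. TFIID subunits gave 0 calls of 17 gene identifiers with limma, 0 within line and 1 at an unadjusted p under 0.05, and a median of -0.03. Taf4b fell in WT, from 611.6 and 846.7 to 479.9 and 343 counts, and had 918.7 and 776.7 and then 832.4 and 916.1 in KO (interaction value 0.87, limma adjusted p 0.335).

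**Figure D4:**
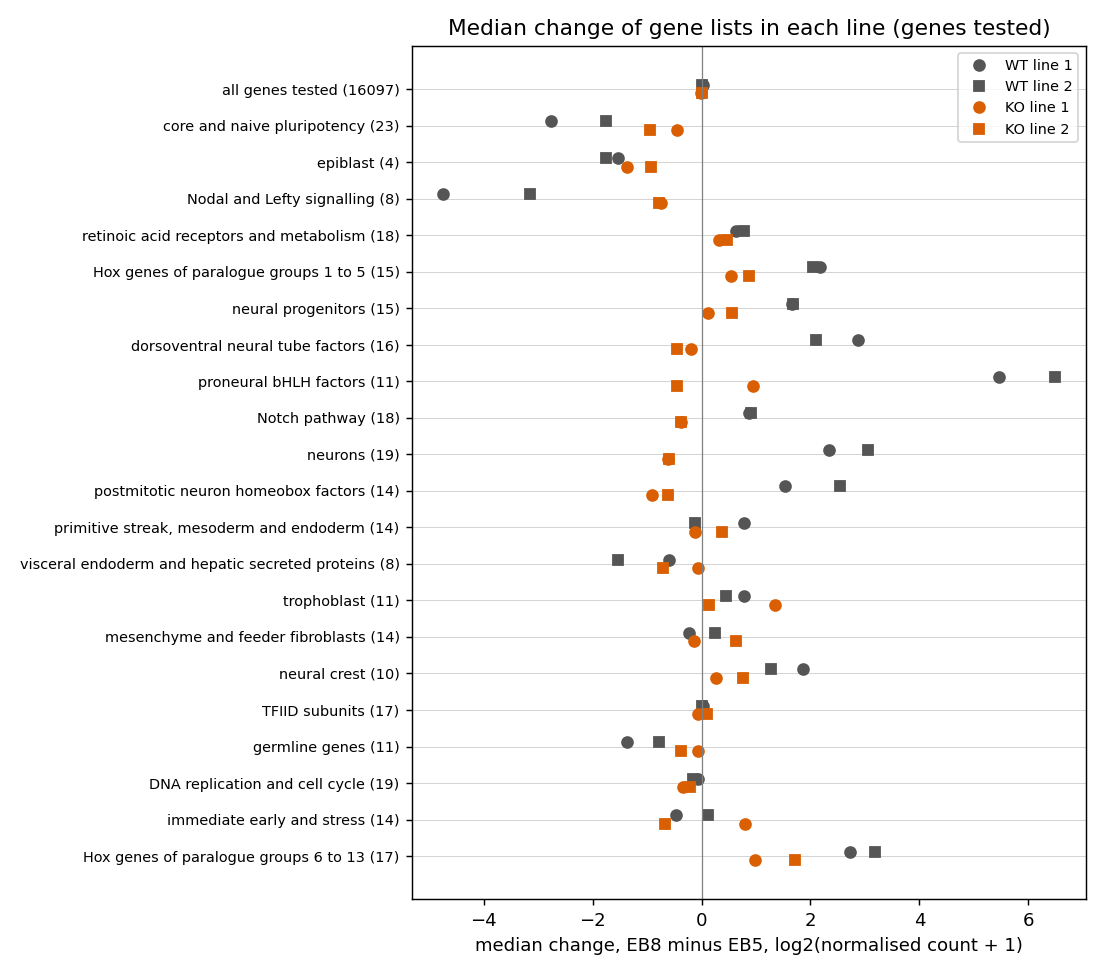
Median change from EB5 to EB8 over the tested genes of each list (number tested in brackets) in each line, in log2(normalised count + 1), WT in grey and KO in orange. The WT and KO symbols lie far apart for neurons, proneural factors, dorsoventral factors and Nodal signalling and close together for TFIID subunits, cell cycle genes and RA genes.

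Among the markers of other cell types below, 1 gene passed in limma without the line term. It was Vim, which neuroepithelial cells also express, of 14 tested genes of mesenchyme and feeder fibroblasts. Of all genes tested, 0.801% passed, 2.89% passed within line and 10.2% had an unadjusted p under 0.05. Vim (ENSMUSG00000026728, chromosome 2, 13495554 to 13504453) had 2088.1 and 1881.1 counts at WT EB5, 20563.4 and 19597.9 at WT EB8, 1421.2 and 1277.1 at KO EB5 and 3909 and 4443.1 at KO EB8. It rose in both genotypes, 10.1-fold in WT and 3.10-fold in KO (interaction value -1.71, standard error 0.23, limma adjusted p 0.0169). The summed counts of the 15 markers were 17962 to 29289 at WT EB5, 37899 and 40257 at WT EB8, 24650 and 38682 at KO EB5 and 23342 and 33234 at KO EB8, with none of the markers at 0 in all 8 libraries. Without Vim the sums were 27201 and 16081 at WT EB5, 19694 and 18301 at WT EB8, 23228 and 37404 at KO EB5 and 19433 and 28791 at KO EB8. Primitive streak, mesoderm and endoderm genes gave 0 calls of 14 with limma, 3 at an unadjusted p under 0.05 and 3 within line, 1 higher and 2 lower. Eomes, of the streak and of trophoblast, was the higher one, with 139.3 and 91.1 and then 23.1 and 12.7 counts in WT and 409.6 and 247.3 and then 470.6 and 362.2 in KO (3.02, limma adjusted p 0.0991, 0.00954 within line, range 0.00226 to 0.397). The lower ones were Foxa1 and Cxcr4, with interaction values of -2.27 and -2.30. Their limma adjusted p was 0.0731 and 0.377, and 0.0347 and 0.0193 within line. Foxa1 also passed with DESeq2 (adjusted p 2.27e-05) and edgeR (0.0435). Visceral endoderm (8 tested) and trophoblast (11 tested) gave 0 calls with limma, within line and at an unadjusted p under 0.05. Neural crest genes gave 0 calls of 10 with limma, 3 at an unadjusted p under 0.05 and 1 within line, germline genes 0 of 11 with limma, 2 and 1, and immediate early and stress genes 0 of 14 with limma, 1 and 1. The part of these cell types in the differences above was not tested.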

How the data were processed

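Poly-A RNA of ES cells and embryoid bodies was sequenced as single-end reads by the authors. Per the labels, the submitters' processing notes name CASAVA 1.7 and 1.8, TopHat2 2.0.10, HTSeq 0.5.4p3, DESeq2 1.0.19 and build mm9. The deposited values are a normalised signal, the read count of a gene divided by a size factor, and neither the gene annotation version nor strand use is given in the sources used here, so that overlapping genes and genes on opposite strands cannot be told apart. Whole reads and the depth were recovered, since 100.0% of a library's values were multiples of 1 step within a tolerance of 0.001. Intervals and floors (3 reads) cover counting error only.

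The main test was limma 3.58.1 (R 4.3.3) on log2(normalised count + 1) with 1 mean per group over the 12 embryoid body libraries, EB4 serving only for the spread (6 residual and 4.13 prior degrees of freedom). The fold change of low genes depends on the 1 that is added. With a floor of 3 reads in its place some interaction values were smaller in size (Ppp1r17, -6.58 against -7.82 as fitted). Others were larger (Scrt2, -8.275 against -7.888). Genes with a mean of at least 10 were tested, and p-values were adjusted with the Benjamini-Hochberg method over all 16097 genes. edgeR 4.0.16 found 109 genes and DESeq2 1.42.0 found 572 on the recovered reads. Adjusted p-values that DESeq2 left out stayed out. The script was tested on simulated data.

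The replicate numbers pair the libraries of a genotype. The correlation across genes of the difference between replicates was 0.533 to 0.611 between stages in WT and 0.234 to 0.414 in KO, which is a description since genes are not independent. The fit within line has a term for each line. The p-values of the main fit rest on the spread between the 2 libraries of a group. That spread is pooled over the embryoid body groups and moderated across genes. The main fit treats libraries of one line at different stages as independent. In the fit within line, the p-values rest on the spread left after the line terms. All of them cover only 2 lines per genotype.

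The comparison, the gene lists and the rule for named genes were chosen with earlier results of these data known. The rule names the 10 genes with the largest value in each direction among those past the threshold with a mean of at least 50 counts and lines apart, the 4 genes of each list with the smallest p, Taf4a and Taf4b. 1 of the genes that the rule names is not reported here. Other genes named in the text were chosen after their values were seen. Older symbols were matched through RefSeq synonyms, and Sox1, Neurod6 and Rhox5 are not analysed here. Cripto was not matched under that name and is missing from the Nodal list. It was tested under the symbol Tdgf1 in the pluripotency list. Positions come from GENCODE M1 on build NCBI37, and promoters from RefSeq on GRCm38.p6.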

Additional observations from a re-analysis of the deposited data

Results flagged for a closer look

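In 8 of the named genes past the threshold both lines of one genotype changed in one direction from EB5 to EB8 and both lines of the other in the opposite direction, the difference itself having been tested as the limma interaction value. P2rx4, an ATP-gated channel, was lower in both WT lines and higher in both KO lines, with an interaction value of 2.01. Its counts were 474.3 and 419.5 and then 139.7 and 165.2 in WT and 490.2 and 642.9 and then 798.7 and 746.7 in KO. The other 7 were higher in both WT lines and lower in both KO lines, namely Tubb3 (-5.38), Elavl3 (-5.06), Ina (-3.74), Neurod1 (-4.48), Dll1 (-2.96), Msx3 (-5.98) and Sox3 (-3.28). The KO change passed the threshold by itself in Tubb3 (limma adjusted p 0.0445). With the replicate block it also passed in Ina, Sox3 and Dll1 (limma adjusted p 0.01, 0.0107 and 0.0109), and in the other 4 the direction in KO is that of 2 lines and not of a test.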

How the results depend on the processing

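The 129 genes kept the sign of the interaction value in every alternative that tested them. They were chosen for their values in the same libraries, so that the kept sign is no independent test. For the interaction of genotype with the EB5 to EB8 change the count was 64 with no filter on counts, 85 with a pseudocount of 0.1, 196 with a pseudocount of 5, 465 with the replicate block of one term per line, 426 with the replicate block as a correlation within line, 572 with DESeq2 and 5 at an adjusted p of 0.01. For the WT change from EB5 to EB8 the count of 1706 became 3335 and 3145 with these blocks, 2704 with DESeq2 and 569 at 0.01. For the KO change from EB5 to EB8 the count of 107 became 729 and 614 with the blocks, 783 with DESeq2, 63 with edgeR, 62 with a pseudocount of 0.1, 175 with quantile normalisation and 13 at 0.01. Upper-quartile and quantile scaling moved the median interaction value of all genes to 0.07 and 0.06 and left 112 and 149 genes. The cause of these differences was not tested. The block ended no call among the 129.

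Without 1 replicate or 1 line the count for the interaction of genotype with the EB5 to EB8 change ran from 0 to 54, for the WT change from EB5 to EB8 from 157 to 1654 and for the KO change from EB5 to EB8 from 1 to 72. The first was 28 and 34 without WT EB5 replicates 1 and 2, 16 and 5 without WT EB8 replicates 1 and 2, 9 and 11 without KO EB5 replicates 1 and 2 and 54 and 39 without KO EB8 replicates 1 and 2. It was 0 without WT line 1 (limma, with 1232 genes at an unadjusted p under 0.05), 2 without WT line 2, 11 without KO line 1 and 2 without KO line 2, where the lone line is assumed to vary like the others.

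Values that changed sign were all far from the threshold. Apoa1 was 0.03 with a pseudocount of 5 and 0.02 with edgeR, and Kdm5d 0.17 with edgeR and 0.33 with DESeq2. With libraries or lines left out, Apoa1 ran from -2.08 to 0.82, Kdm5d from -1.70 to 0.73, Uty from -0.91 to 1.38, Otx2 from -0.53 to 2.21, Taf4a from -0.14 to 0.17, Rbp4 from -0.08 to 1.31 and Eif2s3y from -0.72 to 2.38.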

Other observations

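The genes below are outside the lists, were chosen among the 129 after their values were seen, and stand for no group. Srrm4, the activator of neuronal microexons, went from 32 and 11 to 1436.6 and 1888.9 counts in WT and from 27.5 and 31 to 103.4 and 40.5 in KO (interaction value -5.25, limma adjusted p 0.0219). The tubulins Tubb2b (-2.76) and Tuba1a (-1.94), the microtubule-associated Mtap1a (-2.65) and Mtap1b (-1.72) and the kinesin Kif5c (-1.92) were past the threshold. Tuba1a was already at 4999.5 and 4925.1 counts at WT EB5 and at 6295.4 and 5544.6 at KO EB5, and reached 9130.8 and 13903.8 in WT and 3618.9 and 3400.2 in KO, so that the difference was not limited to genes that start near 0. The atypical cadherins Celsr2 and Celsr3, of planar polarity and axon growth, had values of -2.80 and -2.64.

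Gad1, which makes the inhibitory transmitter GABA, went from 79 and 27.5 to 175.4 and 190.6 counts in WT and from 86.3 and 95 to 16.9 and 20.2 in KO (-4.18, limma adjusted p 0.0339). Dnmt3a, a DNA methyltransferase, had 4315.4 and 3997.2 and then 6394.2 and 7467.5 counts in WT and 8118.6 and 7578.1 and then 4174.9 and 4880.9 in KO, an order of the genotypes that turned between the stages (-1.53, limma adjusted p 0.0402). Tln1 (talin) and the scaffold protein Iqgap1 had higher KO changes, of 1.27 and 1.51, and both were lower in WT EB8 than in the other groups.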
